A study of Mus musculus with 4 samples.

Results

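Ccl5 positive T cells of the mouse spinal cord were taken from 4 droplet libraries by a fixed count rule, which gave 123 of the 20454 cells kept after quality filtering. A cell counted as a member when it held at least 2 UMIs (unique molecular identifiers, 1 per captured transcript) of Cd3e, Cd3d and Cd3g together, at least 3 UMIs of Ccl5 and no UMI of Dntt or Cd79a. Its C1qa, C1qb and C1qc UMIs also had to stay below 0.5% of all its UMIs, and its Cldn5, Flt1 and Pecam1 UMIs below 4 in total. The numbers were 30 members in P301S hom CD8 KO at 30 weeks, 38 in P301S hom CD8 WT at 33 weeks, 37 in P301S hom CD8 WT at 30 weeks and 18 in P301S neg CD8 WT at 30 weeks. The members were chosen by the measured UMIs of Ccl5, the CD3 genes and the lineage genes listed, so the levels of these genes are given as a description and support nothing.

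P301S is a tau mutation found in human tauopathy, and mice with a transgene for this mutant form are used to model such disease; hom and neg stand for homozygous and transgene negative. CD8 KO and CD8 WT are used as the labels give them. The labels do not say which CD8 gene was disrupted, how, or which promoter drives the transgene, and they give no sex for the mice. In each group the cords of 2 mice perfused with saline were combined into 1 library, dissociated with enzymes at body temperature and freed of myelin with beads. Each group was thus 1 library without replicates. No difference between groups could be tested, and every interval below is a 95% interval that covers counting error only.

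Ccl5 is a chemokine that memory and effector T cells and natural killer (NK) cells make in large amounts, and it attracts other leukocytes. Cytotoxic T cells recognise peptide on MHC class I with an alpha-beta receptor and the CD8 coreceptor, and kill with perforin and granzymes. Granzyme K, a tryptase-like protease, is typical of memory-like CD8 T cells in inflamed and ageing tissue. A smaller T cell lineage uses a gamma-delta receptor and often shares the receptors of NK cells.

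Promoters are printed for 3 of the genes that set the members apart from T cells with less Ccl5. Each window runs from 250 bases before to 50 bases after the gene's start, from RefSeq on GRCm38.p6, the build of the deposited counts. The windows are at chr13:113180916-113181215 on the minus strand for Gzmk, chr7:43436888-43437187 on the plus strand for Nkg7 and chr1:164935473-164935772 on the minus strand for Xcl1. Capitals mark GTGTGA, the core bound by T-box factors such as Eomes and Tbx21, which was searched on both strands.
Gzmk: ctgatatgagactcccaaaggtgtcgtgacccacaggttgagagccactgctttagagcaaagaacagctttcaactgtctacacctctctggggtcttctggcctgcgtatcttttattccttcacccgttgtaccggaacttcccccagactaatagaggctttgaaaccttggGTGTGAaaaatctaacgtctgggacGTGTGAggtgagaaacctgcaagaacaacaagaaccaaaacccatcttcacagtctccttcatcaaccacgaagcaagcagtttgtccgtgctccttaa
Nkg7: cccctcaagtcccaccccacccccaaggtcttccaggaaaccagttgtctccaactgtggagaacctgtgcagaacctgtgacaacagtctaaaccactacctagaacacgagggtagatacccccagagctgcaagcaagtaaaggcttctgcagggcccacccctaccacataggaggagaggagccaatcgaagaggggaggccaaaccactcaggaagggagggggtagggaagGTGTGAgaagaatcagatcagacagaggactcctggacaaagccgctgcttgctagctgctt
Xcl1: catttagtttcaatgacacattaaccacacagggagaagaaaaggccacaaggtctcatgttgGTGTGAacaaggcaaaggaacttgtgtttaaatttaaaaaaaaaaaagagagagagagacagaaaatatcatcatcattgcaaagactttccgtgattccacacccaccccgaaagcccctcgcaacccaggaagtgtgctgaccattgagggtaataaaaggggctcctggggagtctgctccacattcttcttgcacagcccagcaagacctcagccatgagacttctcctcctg
The core begins 74 and 49 bases before the RefSeq start in Gzmk, 12 bases before it in Nkg7 and 187 bases before it in Xcl1. It was present in 4760 of 32851 promoter windows of the same length (14.5%), and TGTGGT, the Runx core, in 5506 (16.8%). Of the 8 genes named below as highest in members, 5 had a window, of which 4 held GTGTGA and 4 held TGTGGT. The printed promoters are all among those with GTGTGA, while the NK receptor gene Klrk1 had a window without it and is not printed. These genes come from the contrast that the rule used, so the counts are a description only. A match of this kind is a description of letters and not of a bound site.

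Kept cells had at least 500 UMIs, 200 genes and at most 15% mitochondrial UMIs. The libraries held 43531426, 36331214, 42401255 and 42823896 UMIs in P301S hom CD8 KO at 30 weeks, CD8 WT at 33 weeks, CD8 WT at 30 weeks and P301S neg, over 5443, 5661, 5107 and 6433 barcodes, and 5135, 4830, 4751 and 5738 cells were kept. Pairs of libraries shared 5 to 12 barcodes, none of them between members. Xist or Y-linked UMIs marked 0 members as female and 12 as male in the library labelled CD8 KO, 24 and 5 in CD8 WT at 33 weeks, 35 and 0 in CD8 WT at 30 weeks, and 9 and 2 in P301S neg. Sex and group thus cannot be told apart between the library labelled CD8 KO and CD8 WT hom at 30 weeks, while the other comparisons share cells of 1 sex, and values in such cells are given beside the CD8 and P301S comparisons. Cd8a went against the CD8 KO label outside the T cells: 675 of 1515 cells with endothelial transcripts held a Cd8a UMI in that library (44.6%), against 0 of 1194, 0 of 1160 and 1 of 2226 in CD8 WT at 33 weeks, CD8 WT at 30 weeks and P301S neg.

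Members made up 0.584% of kept cells in the library labelled CD8 KO (0.395% to 0.833%), 0.787% (0.557% to 1.08%) for CD8 WT hom at 33 weeks, 0.779% (0.549% to 1.07%) for CD8 WT hom at 30 weeks and 0.314% in P301S neg (0.186% to 0.495%). The intervals of both P301S hom CD8 WT libraries lay above that of P301S neg and did not overlap it. Among kept cells, the interval of the library labelled CD8 KO overlapped all the others. The numbers of other cells set the denominator: with cells rich in C1q left out, the shares were 1.14%, 1.19%, 1.34% and 0.414% in the same order. With cells rich in neutrophil, B cell or haemoglobin transcripts left out, they were 0.633%, 1.06%, 0.975% and 0.416%. The order of P301S hom CD8 WT above P301S neg was the same with each of these denominators. Cells with endothelial transcripts were more numerous in P301S neg (2226 of 5738 kept cells) than in CD8 WT at 33 weeks (1194 of 4830) and at 30 weeks (1160 of 4751). The shares with those cells left out were not computed, so the separation from P301S neg holds only for the denominators given. The library labelled CD8 KO changed with the denominator. With cells rich in C1q left out, its interval (0.771% to 1.63%) lay above that of P301S neg (0.245% to 0.653%). With blood cells left out, the 2 intervals overlapped (0.428% to 0.903% and 0.247% to 0.656%).

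As a share of all T cells under the same rule without the Ccl5 limit, members were 30 of 49 under the CD8 KO label (61.2%, 46.2% to 74.8%), 38 of 75 in CD8 WT at 33 weeks (50.7%, 38.9% to 62.4%), 37 of 55 in CD8 WT at 30 weeks (67.3%, 53.3% to 79.3%) and 18 of 33 in P301S neg (54.5%, 36.4% to 71.9%). All 4 intervals overlapped. The share of kept cells thus separated the P301S hom CD8 WT libraries from P301S neg, while no difference in the share of T cells with Ccl5 was detectable at these numbers.

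**Figure D1:**
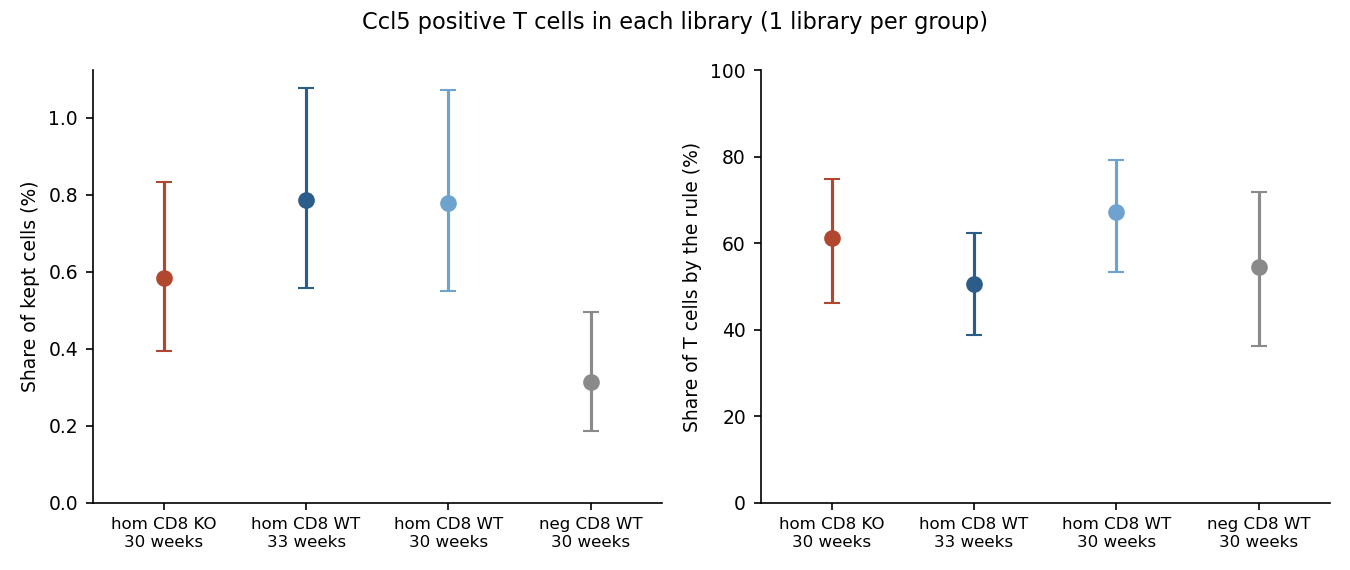
Members as a percent of kept cells (left) and of T cells under the same rule without the Ccl5 limit (right), for each library on the x axis, with 95% exact binomial intervals as bars. The 2 P301S hom CD8 WT libraries sit at 0.787% and 0.779% of kept cells, above P301S neg at 0.314%, while the shares of T cells run from 50.7% to 67.3% with overlapping bars.

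The limit on Ccl5 fell in a sparse range. Of the T cells, 81 had no Ccl5 UMI, 6 had 1 and 2 had 2, and just inside the limit 5 had 3 UMIs, 2 had 4 and 1 had 5. Among cells that met the CD3 and Ccl5 limits, 1 was removed for Dntt, 1 for Cd79a, 4 for C1q and 0 for endothelial transcripts. The median member held 15.5 Ccl5 UMIs in the library labelled CD8 KO, 20.5 in CD8 WT at 33 weeks, 22 in CD8 WT at 30 weeks and 35.5 in P301S neg, and the highest 45, 89, 96 and 80. Members were shallow cells, with a median of 3194 UMIs (717 to 11361), and the medians by library were 2629.5, 3186, 3687 and 3858.5 UMIs in the same order.

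Cd8a and Cd8b1 encode the alpha and beta chains of the CD8 coreceptor and lie next to each other on chromosome 6 (Cd8b1 at 71322788 to 71337494 and Cd8a at 71373427 to 71379173, GENCODE M21). In members of the library labelled CD8 KO, Cd8a had 0 UMIs, which is below 34.6 CPM at a floor of 3 UMIs (CPM, UMIs of a gene scaled to a common total of the members' UMIs, 1000000), against 464 CPM in CD8 WT at 33 weeks, 413 in CD8 WT at 30 weeks and 246 in P301S neg. Cd8b1 had 34.6 CPM, all of it in 1 cell, in the library labelled CD8 KO, against 771, 557 and 188 CPM. Both genes were thus low in the T cells of that library, opposite to Cd8a in its endothelial cells. A 3' tag can lie outside the disrupted part of a gene, so these counts check the RNA and not the allele.

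CD8 members, defined by Cd8a or Cd8b1 UMIs without any Cd4 UMI, numbered 1 among 30 under the CD8 KO label (3.33%, 0.0844% to 17.2%), 23 of 38 in CD8 WT at 33 weeks (60.5%, 43.4% to 76.0%), 23 of 37 in CD8 WT at 30 weeks (62.2%, 44.8% to 77.5%) and 5 of 18 in P301S neg (27.8%, 9.69% to 53.5%). Thinned to 1000 UMIs per cell, the shares were 3.45%, 50%, 50% and 16.7%. Cd4 marked 2, 1, 1 and 1 members, so that 27, 14, 13 and 12 held neither coreceptor. Background was low, since Cd8b1 was found in 6 of 6095 cells with endothelial transcripts (median 5447 UMIs) and 1 of 7541 cells rich in C1q (median 8223 UMIs). The members thus had different coreceptor calls in every library, and CD8 calls were nearly missing under the CD8 KO label. A cell without a UMI may still express the gene, so the class without CD8 can hold CD8 cells.

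The T cell receptor genes gave the same picture of a mixed class. Trac, the alpha chain constant gene, was detected in 22, 31, 34 and 13 members in the order of the libraries above. Trdc, the delta chain constant gene, was detected in 9 of 30 members of the library labelled CD8 KO, 5 of 38 in CD8 WT at 33 weeks, 1 of 37 in CD8 WT at 30 weeks and 2 of 18 in P301S neg, and after thinning in 24.1%, 5.26%, 0% and 11.1%. Trdc was in 0 of 7541 cells rich in C1q and 0 of 6095 cells with endothelial transcripts, and none of the 52 CD8 members of all libraries held a Trdc UMI. Of the 30, 38, 37 and 18 members, 5, 3, 0 and 1 had Trdc without Trac, but 8 of 9, 5 of 5, 1 of 1 and 2 of 2 of those with Trdc also held a UMI of an alpha or beta chain constant gene. Over all libraries 10 of the 24 members with Klrb1c (NK1.1, a receptor of NK cells) held Trdc, against 7 of the 99 without. The counts were 3 of 6 against 6 of 24 under the CD8 KO label, with intervals that overlapped, 5 of 12 against 1 of 63 in pooled P301S hom CD8 WT, with intervals that did not, and 2 of 6 against 0 of 12 in P301S neg.

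The marker genes of the class are described for every library. Nkg7, a membrane protein of cytotoxic granules, was detected in 27 of 30, 38 of 38, 35 of 37 and 17 of 18 members and reached 2246, 1975, 1967 and 1850 CPM. Cd3e had 1083, 748, 814 and 737 CPM, and Ccl5, on chromosome 11 at 83525778 to 83530518, had 6323, 8010, 6896 and 9727 CPM. Nkg7 and Cd3e were in nearly every member and the intervals of their levels overlapped between libraries, while Ccl5 was highest in P301S neg. Ccl5 and the CD3 genes chose the members, so their presence was set by the rule and does not bear on the label. Of the markers that the rule did not use, Nkg7 was in 117 of 123 members. Gzmk and Cxcr6 were in a part of the members only, 43 (35.0%) and 77 of 123.

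Gzmk lies on the minus strand of chromosome 13 at 113171608 to 113225908 in GENCODE M21. The promoter window printed above, taken at the RefSeq start, lies inside these limits and not at their upstream end. Gzmk had 426 CPM in members of the library labelled CD8 KO (300 to 587), 220 in CD8 WT at 33 weeks (146 to 318), 276 in CD8 WT at 30 weeks (200 to 370) and 173 in P301S neg (89.6 to 303). It was detected in 12 of 30 (40.0%), 13 of 38 (34.2%), 14 of 37 (37.8%) and 4 of 18 (22.2%) members, and after thinning to 1000 UMIs in 31.0%, 21.1%, 16.7% and 5.56%. Gzmk UMIs were found in 0 of 7541 cells rich in C1q and 1 of 6095 cells with endothelial transcripts. Granzyme K was thus found in members of every library, the one labelled CD8 KO included, and the intervals of its shares overlapped. In T cells with less Ccl5 it was in 1 of 19, 0 of 37, 0 of 18 and 2 of 15 cells, and in cells of the NK rule (Ccl5 and Ncr1 or Klrb1c, fewer than 2 CD3 UMIs) in 2 of 55.

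**Figure D2:**
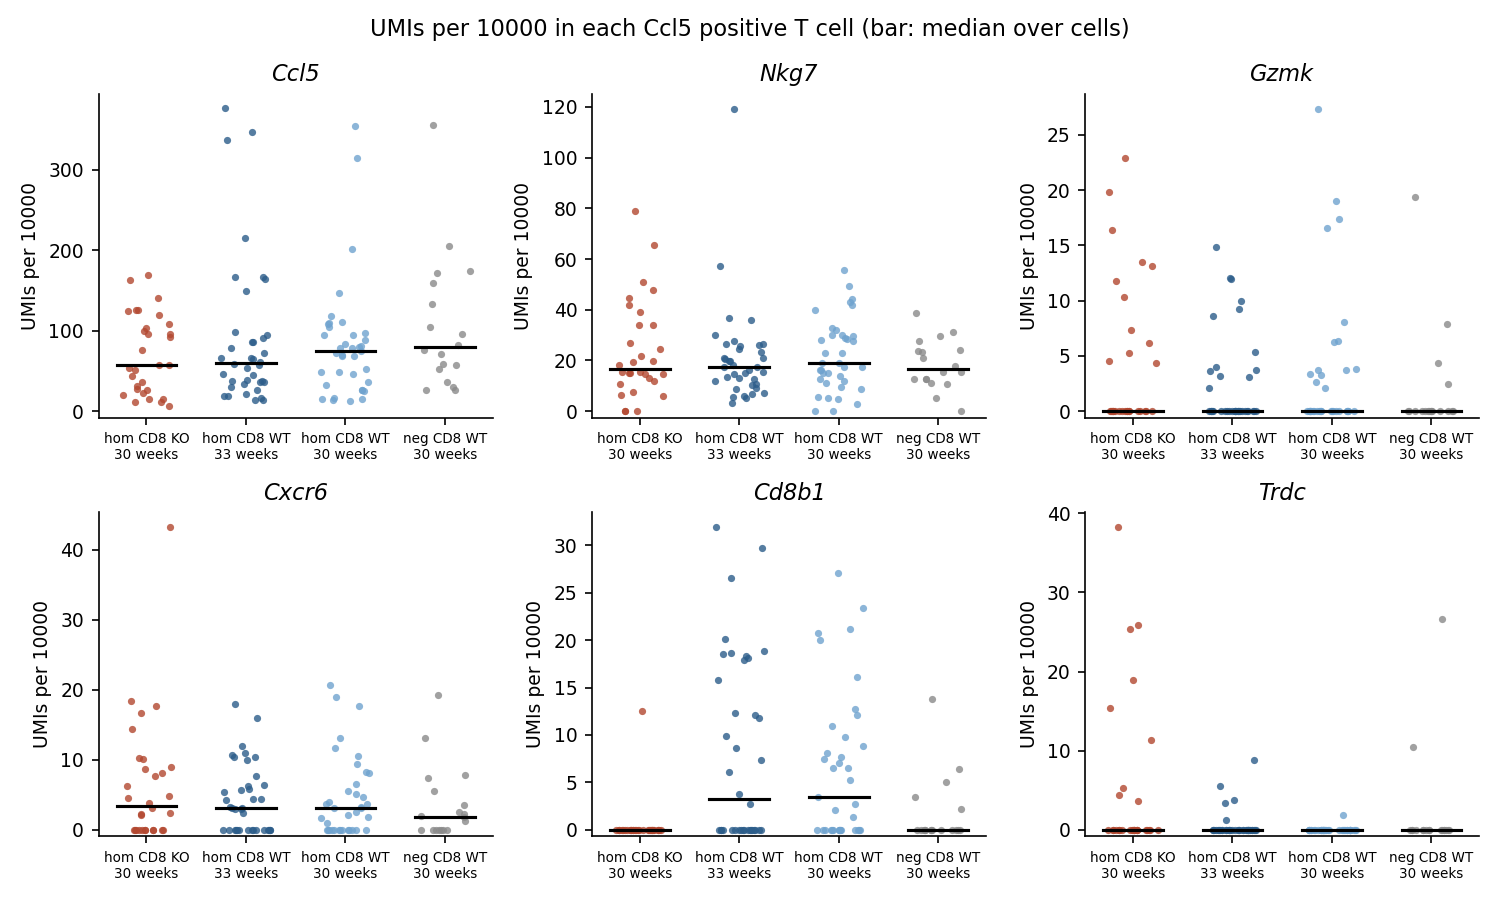
UMIs per 10000 in each member, 1 point a cell, for Ccl5, Nkg7, Gzmk, Cxcr6, Cd8b1 and Trdc by library, with the median over cells as a bar. Ccl5 and Nkg7 are spread over nearly all members, Gzmk is in 12, 13, 14 and 4 of them, and Cd8b1 is in 1 of 30 members of the library labelled CD8 KO.

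Within the P301S hom CD8 WT members pooled over both ages, Gzmk was found more often in CD8 members. It was in 22 of 46 CD8 members (47.8%, 32.9% to 63.1%) and 5 of 29 members without CD8 (17.2%, 5.85% to 35.8%), at similar depth (median 3231.5 and 3484 UMIs). These intervals overlapped. The split had the same direction in each of the 3 CD8 WT libraries, with 11 of 23 and 2 of 15 at 33 weeks, 11 of 23 and 3 of 14 at 30 weeks, and 3 of 5 and 1 of 13 in P301S neg. In the library labelled CD8 KO, whose 1 CD8 member held no Gzmk, it was in 12 of 29 members without CD8 (41.4%, 23.5% to 61.1%; median 2640 UMIs). That share was above the 5 of 29 of the CD8 WT members without CD8, with intervals that overlapped. The class without CD8 took in 29 of 30 members under the CD8 KO label, but 29 of 75 in pooled CD8 WT hom. It was defined by missing Cd8a and Cd8b1 UMIs, so the 2 sets are not matched cell classes.

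Other genes also differed between CD8 members and the rest. In P301S hom CD8 WT, Pdcd1, the inhibitory receptor PD-1, was in 27 of 46 CD8 members (58.7%) and 1 of 29 without CD8 (3.45%), and in 5 of 29 members without CD8 of the library labelled CD8 KO. P301S neg did not show this split, with Pdcd1 in 0 of 5 CD8 members and 2 of 13 without CD8. Cells with endothelial transcripts gave a background of 8 in 6095 (0.131%) for Pdcd1. Fcer1g and Tyrobp, adaptors that pass on signals of activating NK receptors, ran the other way. Fcer1g had 96.4 CPM in CD8 members and 1043 CPM in those without CD8, and Tyrobp 108 and 1026 CPM. Over these members Tyrobp had 106 UMIs at 33 weeks and 36 at 30 weeks. The part of macrophage RNA in the Fcer1g and Tyrobp values was not tested. Klre1, a lectin-like NK receptor, had 90.4 and 331 CPM, and Klrb1c and Ncr1 had 0 UMIs in CD8 members and 232 and 149 CPM in those without. Fcer1g, Tyrobp, Klre1, Klrb1c and Ncr1 were thus higher in the members without CD8 than in the CD8 members. This did not hold for every NK receptor gene. Klrk1, another of them, was in 25 of 46 CD8 members and 17 of 29 without CD8, with intervals that overlapped. Xcl1 and Cd27 also had overlapping intervals, being in 29 and 31 of 46 CD8 members and in 18 and 21 of 29 without CD8.

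**Figure D3:**
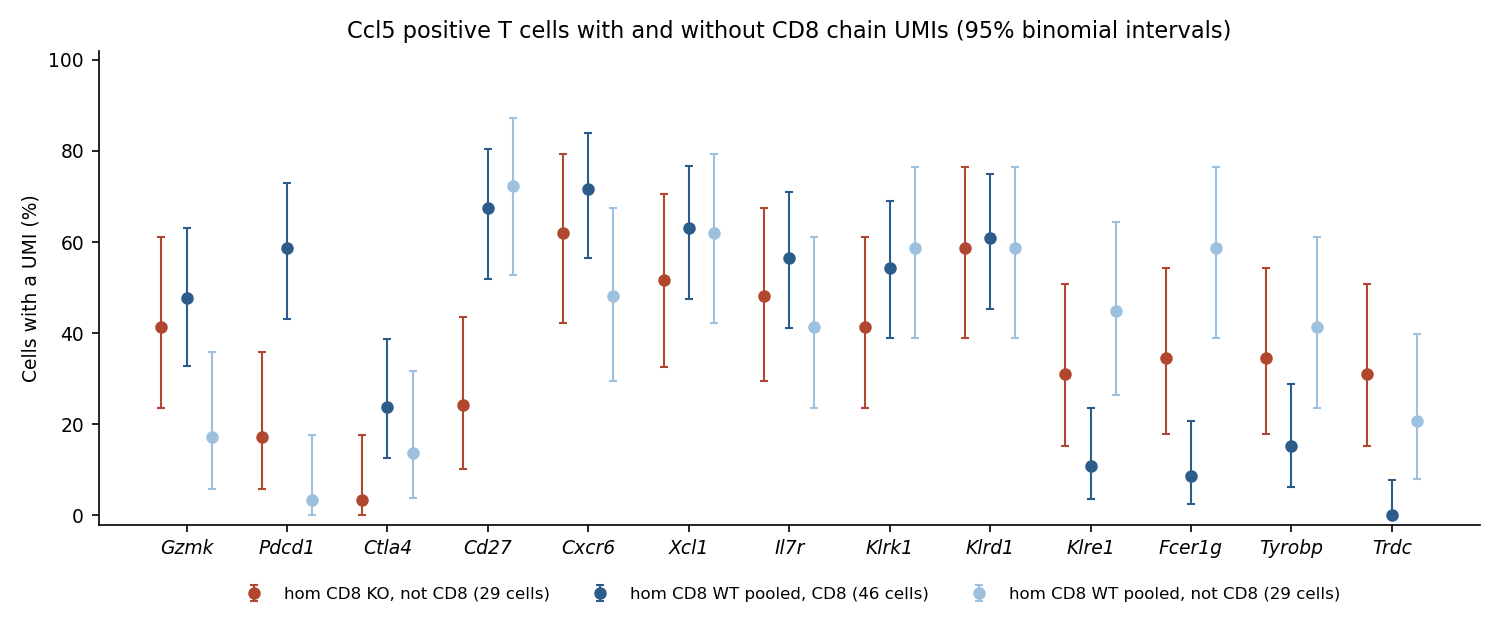
Percent of cells with a UMI of 13 genes in members without CD8 of the library labelled CD8 KO (29 cells), and in CD8 members (46 cells) and members without CD8 (29 cells) of the pooled P301S hom CD8 WT libraries, with 95% exact binomial intervals. Pdcd1 stands at 58.7% in CD8 members and 3.45% in the CD8 WT members without CD8, while Fcer1g stands at 8.70% and 58.6%.

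The Gzmk positive members of all libraries, 43 cells, had 127 CPM of Eomes, a T-box factor of memory and NK cells, against 37.5 CPM in the 80 without Gzmk, and 567 against 195 CPM of Cd8a. The CPM of Eomes was higher in the Gzmk positive members in 4 of 4 libraries, but on few UMIs, 19 against 11 in all. By library these were 5 against 0, 5 against 7, 7 against 3 and 2 against 1 UMIs. They had less Klrd1, with 240 against 563 CPM and the same direction in 4 of 4 libraries. Fcer1g had 207 against 741 CPM, but 502 against 420 CPM in CD8 WT hom at 30 weeks. Xcl1 had 280 against 601 CPM over all libraries, but 433 against 306 CPM under the CD8 KO label, and 2 cells without Gzmk held 32 and 21 of its 176 UMIs. Pdcd1 and Gzmk were found together in 18 of 35 Pdcd1 positive members, against 25 of 88 Pdcd1 negative ones with Gzmk, though in P301S neg in 0 of 2 against 4 of 16. Cxcr6 did not separate them, with Gzmk in 28 of 77 members with Cxcr6 and 15 of 46 without.

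Set against the 89 T cells with 0 to 2 Ccl5 UMIs (19, 37, 18 and 15 per library), the members had more of the cytotoxic and NK receptor genes and less of the genes of naive T cells. This contrast is the one the rule used, so the counts are a description only. Of 4382 genes with at least 20 UMIs in both together, 282 were at least 2-fold higher in members (6.44%) and 244 lower (5.57%). Beside Ccl5, the genes highest by the naming rule were Xcl1 (492 against 41.6 CPM, ratio 11.8, 6.78 to 22.6), a chemokine for cross-presenting dendritic cells, and Nkg7 (2006 against 298 CPM, ratio 6.74, 5.44 to 8.43). The early growth gene Egr1 (ratio 14.4) and the NK receptor Klre1 followed, the last with 99 against 0 UMIs, at least 23.3-fold higher. Gzmk came next with 121 against 5 UMIs (ratio 17.1, 7.12 to 53.5), and then Klrk1 (NKG2D) and Cd7, with ratios of 6.87 and 5.94.

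By group, 8 of the 10 cytotoxic granule genes with enough UMIs were at least 2-fold higher in members (Gzmk, Gzma, Gzmb, Prf1, Nkg7, Ctsw, Fasl and Ctsc) and none lower, with a median log2 ratio of 1.61 against 0.09 over all genes. Of 11 NK receptor genes 10 were higher (median 2.78), and of 5 inhibitory receptor and exhaustion genes 4 were higher (Pdcd1, Tox, Cd160 and Nr4a2). Of 11 genes of naive or central memory T cells 4 were lower (Ccr7, Il7r, Satb1 and Dapl1) and none higher. The transcription factors Eomes, Tbx21 and Zeb2 and the survival gene Bcl2 were higher and Ikzf3 lower. Bcl2, Ikzf3, Il7r and Satb1 were near the limit, and without the 1 cell that held most of their UMIs each fell just below 2-fold (Bcl2 to a ratio of 1.98, and Ikzf3, Il7r and Satb1 to 1.84-fold, 1.96-fold and 1.92-fold lower). Each of Gzmk, Nkg7, Xcl1, Klre1, Klrk1, Klrd1 and Eomes was higher in members in 4 of 4 libraries.

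Il17a, a gene chosen after its values were seen and the cytokine of interleukin-17 T cells, had 0 CPM in members of all 4 libraries, against 340, 258, 184 and 0 CPM in the T cells with less Ccl5. Ramp1, a receptor component for the neuropeptide CGRP, was 17.0-fold lower, Tmem176a 10.9-fold, Tmem176b 9.01-fold and Serpinb1a 42.0-fold lower. Cxcr6, although a marker of the class, was higher in the T cells with less Ccl5 in 3 of 4 libraries. It had 633, 378, 382 and 304 CPM in members and 751, 741, 620 and 130 CPM in T cells with less Ccl5. Blood cell transcripts moved with this contrast, since all 8 neutrophil and all 6 erythroid genes were lower in members, and 0, 5, 2 and 1 of the T cells with less Ccl5 held at least 1% S100a8 and S100a9 or 5% haemoglobin UMIs, against 0 members. Without those 8 cells, 8 cytotoxic genes were still higher (median 1.40), 11 NK receptor genes were higher (median 2.92) and 4 naive genes lower. Of the 5 inhibitory receptor and exhaustion genes 3 were then higher and 1 lower, as Pdcd1 fell below 2-fold (log2 ratio 0.93) and Ctla4 passed it downward (−1.01), and Bcl2 fell below it as well (0.83). In the same cells 0 of 2 neutrophil genes and 0 of 4 erythroid genes passed 2-fold.

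**Figure D4:**
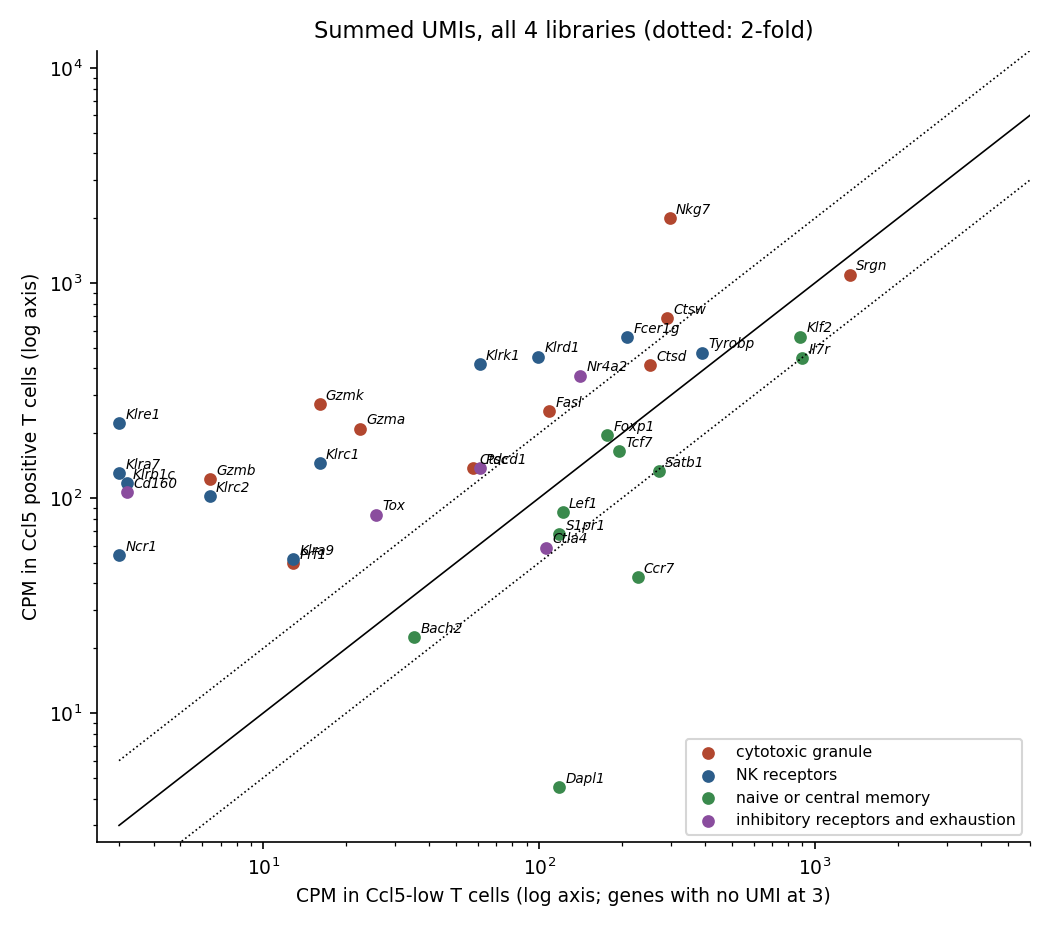
CPM of summed UMIs in members (y axis) against T cells with less Ccl5 (x axis), both on log axes, for the reported genes of 4 lists with at least 20 UMIs in both together; dotted lines mark 2-fold and genes without a UMI are drawn at 3 CPM. Above the upper line lie 8 of 10 cytotoxic granule genes and 10 of 11 NK receptor genes, and Dapl1, Ccr7, Satb1 and Il7r lie below the lower one.

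For the CD8 genotype, the library labelled CD8 KO was set over the pooled P301S hom CD8 WT libraries (30 against 75 members). Of 2491 genes, 122 were at least 2-fold higher (4.9%) and 180 lower (7.23%). With TMM scaling, which shifted all log2 ratios by −0.24, the split was 61 higher and 289 lower. Over the 30-week CD8 WT library alone, 79 of 1662 genes were higher (4.75%) and 89 lower (5.35%). The coreceptor genes led the lower end, with Cd8a at least 12.6-fold lower (0 against 125 UMIs) and Cd8b1 18.9-fold lower (6.36 to 92.4, 3 against 187 UMIs). Trdc was 9.91-fold higher (4.88 to 21.7), Tcrg-C2 2.55-fold (1.48 to 4.33) and Tcrg-C4 2.48-fold (1.18 to 5.09), so that all 3 gamma-delta receptor genes with enough UMIs passed 2-fold upward. All members with Trdc were without CD8. Among members without CD8, Trdc was in 9 of 29 under the CD8 KO label and 6 of 29 in CD8 WT. The 5-gene gamma-delta list summed to 933, 370, 138 and 448 CPM in members, in the order of libraries used above. In T cells with less Ccl5 it summed to 1145, 466, 1038 and 13.0 CPM.

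The cytotoxic genes showed no common direction. Of 10 with enough UMIs, Prf1 (perforin) was higher (ratio 2.70, 0.990 to 7.17) and Gzmb (granzyme B) 2.73-fold lower (0.839 to 14.0), both with intervals that reached 1. Without the cell with most UMIs of the gene they were below 2-fold, at a ratio of 1.87 for Prf1 and 1.74-fold lower for Gzmb. The list's median log2 ratio was 0.08, and −0.16 with TMM scaling. Gzmk was below 2-fold, with a ratio of 1.70 (1.11 to 2.56), and so were Cxcr6 (1.67, 1.18 to 2.33), Klrd1 (1.54, 1.09 to 2.14) and Nkg7 (1.14, 0.964 to 1.34). Of the 10 NK receptor genes none passed 2-fold, with a median of 0.13, and −0.11 with TMM scaling. Over the 30-week CD8 WT library alone, 2 of 9 NK receptor genes were higher, Klrc1 (3.01, 1.35 to 7.05) and Tyrobp (2.3, 1.45 to 3.67), with a median of 0.58. Gzma was then the 1 of 8 cytotoxic genes past 2-fold, with 19 against 5 UMIs (ratio 6.99, 2.52 to 23.9). Ccl5 itself had a ratio of 0.856 (0.778 to 0.940).

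Inhibitory receptor genes were lower under the CD8 KO label in 2 of 5 cases (Pdcd1 and Ctla4), genes of naive or central memory T cells in 1 of 6 (Tcf7) and costimulation genes in 1 of 7 (Cd27), and none of these lists had a gene 2-fold higher. Pdcd1 had 57.6 CPM in the library labelled CD8 KO, against 110, 251 and 28.9 CPM in CD8 WT at 33 weeks, CD8 WT at 30 weeks and P301S neg, and was 3.27-fold lower than in the pooled CD8 WT hom members (1.32 to 10.5). Ctla4, another inhibitory receptor, was in 1 of 30 members, against 15 of 75. Cd27, a costimulatory receptor of the TNF receptor family, had 127 CPM against 331, 338 and 332 CPM and was 2.64-fold lower (1.41 to 5.47). It was detected in 7 of 30, 25 of 38, 27 of 37 and 11 of 18 members, and after thinning in 10.3%, 15.8%, 30.6% and 22.2%, with 2.54% of cells with endothelial transcripts as background. Tcf7, a factor of stem-like memory T cells, was 2.62-fold lower (1.13 to 7.48), while Il7r had a ratio of 0.819 (0.530 to 1.23). The lower Cd27 was also seen among members without CD8, with 7 of 29 under the CD8 KO label and 21 of 29 in CD8 WT. Pdcd1 was not lower there, with 5 of 29 under the CD8 KO label and 1 of 29 in CD8 WT. In pooled CD8 WT hom, Pdcd1 was in 27 of 46 CD8 members, a class nearly missing under the CD8 KO label. The 2 classes without CD8 are not matched, as described above.

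Of 13 genes of a list of early response genes induced by tissue dissociation, 2 were higher under that label, Egr1 at 3.78-fold (2.59 to 5.53) and Ier2 at 2.70-fold (2.15 to 3.39). Both calls rested on 1 cell each, which held 34 of 63 Egr1 UMIs and 66 of 144 Ier2 UMIs. Without that cell the ratios were 1.86 (1.15 to 2.97) for Egr1 and 1.57 (1.18 to 2.06) for Ier2, below 2-fold. The remaining genes that the naming rule placed highest were Vamp2, Spry2, Trappc6b, Glrx, Fgl2 (2.95-fold, 1.65 to 5.25) and Dbf4, and those it placed lowest after the CD8 genes were Phf5a, Anp32e, Otulinl, Cnot2, Chd7 and Spag9. The higher ones had 12 to 25 UMIs under the CD8 KO label, and the lower ones 0 to 2 there. Sex moved with this comparison, since 12 members were called male and 0 female under the CD8 KO label, against 5 male and 59 female in the pooled CD8 WT hom libraries. In male cells alone (12 cells against 5, all 5 at 33 weeks), 28 of 339 genes were higher and 9 lower, so that the balance turned. There Cd8b1 was 17.2-fold lower (5.24 to 88.8), Tcrg-C2 6.8-fold higher (1.03 to 287) and Trdc had 7 against 0 UMIs. Gzmk had a ratio of 1.75 (0.625 to 6.02), and Cd27 was 3.3-fold lower (0.951 to 12.8), with intervals that reached 1. Pdcd1 had 3 against 3 UMIs, too few to compare.

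Age was compared between P301S hom CD8 WT at 33 and at 30 weeks (38 against 37 members). Of 1906 genes, 66 were at least 2-fold higher (3.46%) and 94 lower (4.93%), 8.39% in all. The effector genes stayed below 2-fold, with a ratio of 0.799 for Gzmk (0.479 to 1.31), 0.989 for Cxcr6 (0.663 to 1.47) and 1.38 for Cd8b1 (1.03 to 1.86). Gzma was 16.1-fold higher (6.54 to 51.2), but 51 of its 64 UMIs at 33 weeks came from 1 cell, and without it the ratio was 3.39 (1.13 to 12.2).

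Of 5 proliferation genes with enough UMIs 4 were lower at 33 weeks. Stmn1, a microtubule regulator of dividing cells, had 3 against 54 UMIs (14.3-fold lower, 4.65 to 71.6), Tuba1b was 4.41-fold lower (2.42 to 8.68), and Tubb5 and Hmgb2 were lower as well. Of the 54 Stmn1 UMIs 30 came from 1 cell, and without the cell with most UMIs of each gene Stmn1 was 6.86-fold and Tuba1b 3.41-fold lower, while Tubb5 (1.6-fold) and Hmgb2 (1.79-fold) were below the limit. A UMI of Mki67 or Top2a, which mark cycling cells, was in 4, 0, 6 and 1 members of the 4 libraries in the order used above. Pdcd1 was 2.27-fold lower at 33 weeks (1.21 to 4.53) and the interferon-induced Ifi27l2a 6.54-fold lower (3.27 to 14.9). Il7r, the interleukin-7 receptor of long-lived T cells, was 2.45-fold higher (1.66 to 3.66) and the cytokine Ltb 2.04-fold higher (1.39 to 3.02; 1.91 without its highest cell). The NK receptor Klrc1 (NKG2A) was 2.86-fold higher (1.36 to 6.43) and Tyrobp 3.70-fold (2.51 to 5.56). Lyz2, a myeloid gene, was 7.39-fold higher, with 136 of its 147 UMIs in 1 cell, without which its ratio was 0.592, and the summed macrophage list had 3218 CPM at 33 and 1760 CPM at 30 weeks. Its part in the Tyrobp value was not tested.

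For the P301S genotype, the pooled P301S hom CD8 WT libraries were set over P301S neg (75 against 18 members). Of 2341 genes, 236 were at least 2-fold higher (10.1%) and 96 lower (4.1%), and with TMM scaling, which shifted log2 ratios by 0.20, the split was 322 higher and 53 lower. At 30 weeks alone, 111 of 1530 genes were higher in P301S hom (7.25%) and 60 lower (3.92%). In female cells alone (59 against 9), 243 of 1901 genes were higher and 85 lower. Of the 2 CD8 genes Cd8b1 passed 2-fold with a ratio of 3.47 (1.98 to 6.64), while Cd8a was below it at 1.77 (1.06 to 3.14). Of 5 inhibitory receptor and exhaustion genes 2 were higher, Pdcd1 and Ctla4, and at 30 weeks alone 1 of 3, Pdcd1. Pdcd1 had 54 against 2 UMIs (ratio 6.51, 1.72 to 55.2) and Ctla4 25 against 0 UMIs, at least 2.01-fold higher (1.80 without its highest cell). Pdcd1 was in 10 of 38, 18 of 37 and 2 of 18 members of CD8 WT at 33 weeks, CD8 WT at 30 weeks and P301S neg, and after thinning in 10.5%, 22.2% and 5.56%, so that the difference rested on few UMIs per cell. Lag3, Havcr2 and Tigit, other receptors of exhausted T cells, were in 0 to 2 members of each library.

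Gzmk had a ratio of 1.45 between P301S hom and neg (0.780 to 2.93), Nkg7 of 1.06 (0.878 to 1.3), Cxcr6 of 1.25 (0.780 to 2.10) and Cd27 of 1.01 (0.634 to 1.66). Of 9 cytotoxic genes, Gzma (3.33-fold, 1.36 to 10.6) and Ctsc were higher and Gzmb lower (3.68-fold, 2.03 to 6.63). In P301S hom 51 of the 69 Gzma UMIs came from 1 cell, and without it Gzma had 63.8 against 72.3 CPM (ratio 0.883, 0.316 to 3.04). Of the 24 Gzmb UMIs in P301S neg 21 came from 1 cell, and without it Gzmb had 94.2 against 45.4 CPM. Both directions thus turned, and at 30 weeks alone Ctsc was the 1 of 8 cytotoxic genes that was higher. In female cells alone 5 of 9 were higher (Gzmk, Gzma, Gzmb, Fasl and Ctsc) and none lower, with a ratio of 2.44 for Gzmk (0.904 to 9.26). Ccl4, another chemokine of activated T cells, had 197, 313 and 130 CPM in CD8 WT at 33 weeks, CD8 WT at 30 weeks and P301S neg. Xcl1 ran the other way, with 378, 539 and 766 CPM and a ratio of 0.610 (0.441 to 0.855), although 32 UMIs at 30 weeks and 21 in P301S neg came from 1 cell each. In female cells alone it had 516 against 343 CPM (ratio 1.5, 0.864 to 2.83), the other direction. Trdc was 3.77-fold lower in P301S hom (1.43 to 9.77), as 11 against 10 UMIs, of which 6 in P301S neg came from 1 cell, and without it 1.56-fold lower (0.362 to 5.26).

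Of 11 interferon response genes 4 were at least 2-fold higher in P301S hom and none lower, with a median log2 ratio of 0.66. At 30 weeks alone 1 of 7 was higher (Isg15; median 0.61), and in female cells alone 6 of 11 (median 1.02). Isg15, a ubiquitin-like protein, had 126, 225 and 43.4 CPM in CD8 WT at 33 weeks, CD8 WT at 30 weeks and P301S neg (ratio 4.18, 1.35 to 20.9). Ifit1 was at least 3.22-fold higher, but 25 of its 40 UMIs came from 1 cell, without which the bound was 1.22. Irf7 (3.5, 0.885 to 30.3) had an interval that reached 1. The library labelled CD8 KO had 276 CPM of Isg15 and 69.1 CPM of Ifit1. Of 14 early response genes 6 were lower in P301S hom (Fos, Fosb, Jun, Egr1, Nr4a1 and Dnaja1) and none higher, with a median of −0.89. Fos had 519, 551 and 1807 CPM and Egr1 150, 225 and 650 CPM in CD8 WT at 33 weeks, CD8 WT at 30 weeks and P301S neg. In P301S neg 62 of the 125 Fos UMIs came from 1 cell. Without the highest cell of each gene Fos was 1.84-fold lower, Nr4a1 1.58-fold and Dnaja1 1.77-fold, below the limit, while Fosb, Jun and Egr1 stayed past it. In female cells alone the direction turned, with 504 against 245 CPM for Fos (ratio 2.06, 1.08 to 4.39), 215 against 98.1 CPM for Egr1, and 2 of 13 genes higher and none lower. Fos also had 1071 CPM in the library labelled CD8 KO, so that P301S hom libraries differed among themselves.

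Macrophage transcripts moved with the genotype comparison as well. The 10-gene macrophage list summed to 1382, 3218, 1760 and 694 CPM in members of the library labelled CD8 KO, CD8 WT at 33 weeks, CD8 WT at 30 weeks and P301S neg. In CD8 WT at 33 weeks Lyz2 held 147 of the list's 409 UMIs, most of them in the cell described with the age comparison. The list also holds C1qa, C1qb and C1qc, which the rule capped. Apoe was in 17 of 30, 31 of 38, 28 of 37 and 0 of 18 members, at least 13.7-fold higher in the pooled P301S hom CD8 WT members. The 8-gene endothelial list summed to 311, 267, 332 and 434 CPM, with Cldn5 at 0 in all but P301S neg, where it had 1 UMI. Over all members Bsg held 94 and Itm2a 27 of the list's 144 UMIs, and the rule capped Cldn5, Flt1 and Pecam1. The sums were thus set mostly by Bsg and Itm2a and are not read as a measure of endothelial RNA. The part of macrophage RNA in the other ratios was not tested.

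**Figure D5:**
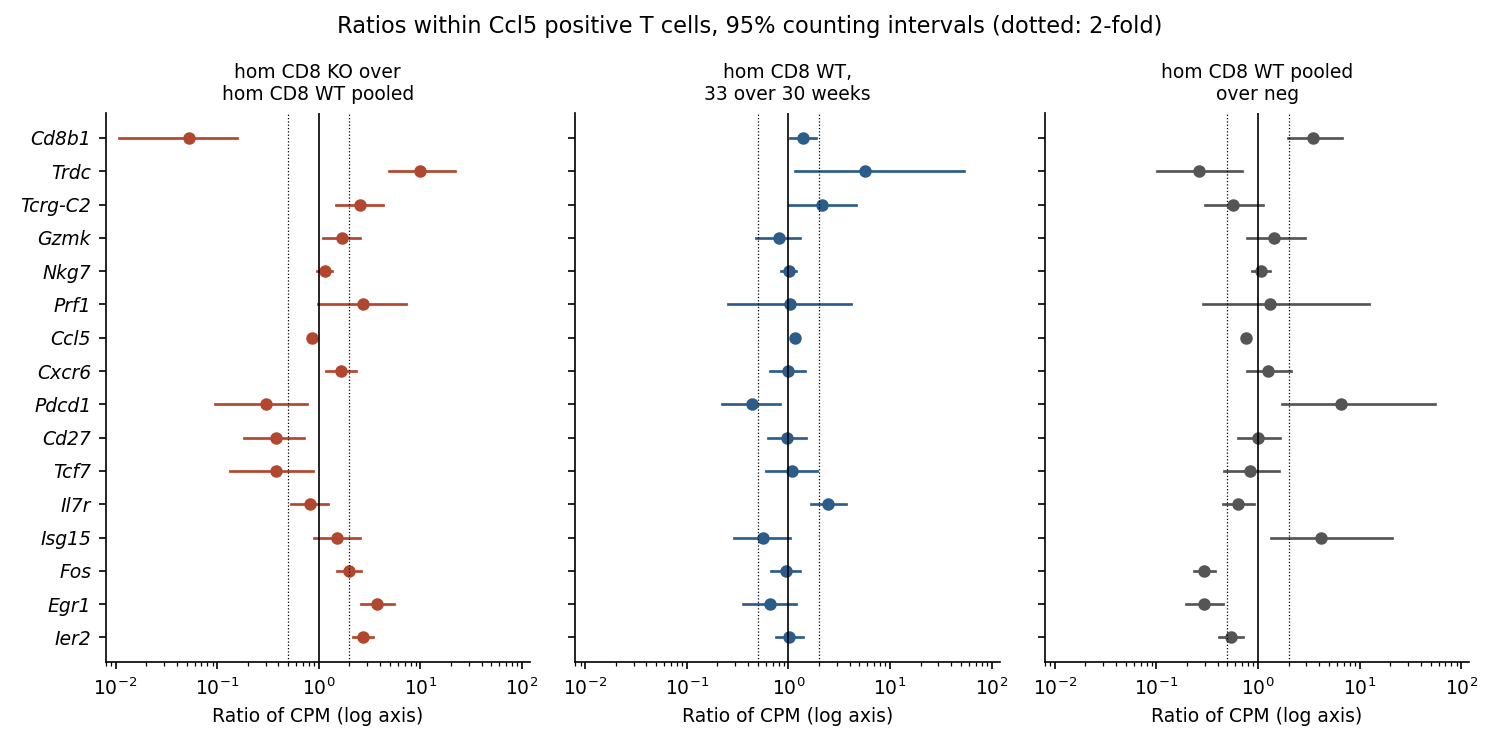
Ratios of CPM on a log axis with 95% intervals for 16 genes in 3 panels: the library labelled CD8 KO over pooled P301S hom CD8 WT, 33 over 30 weeks, and pooled P301S hom CD8 WT over P301S neg. Trdc lies at 9.91 in the first panel, Gzmk lies at 1.70, 0.799 and 1.45 in the panels from left to right, and Pdcd1 at 6.51 in the last.

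Further effector genes were detected in members of all libraries without passing 2-fold in the CD8 comparison. Ctsw, a protease of cytotoxic cells, had 887, 598, 633 and 708 CPM, and Fasl, a death receptor ligand, 207, 338, 225 and 217 CPM in the library labelled CD8 KO, CD8 WT at 33 weeks, CD8 WT at 30 weeks and P301S neg. Ifng had 92.1, 110, 100 and 188 CPM in the same order. The T-box factors were detected in few cells, Eomes in 5, 6, 7 and 2 and Tbx21 in 7, 9, 9 and 3 members. Among homing genes, Cxcr3, a receptor for interferon-induced chemokines, had 150, 173, 163 and 246 CPM. Among residency genes, Itga1 had 104, 110, 62.6 and 145 CPM, and Cd69 346, 236, 457 and 564 CPM. Itgae, which encodes CD103, was in 0, 3, 0 and 0 members and Zfp683 (Hobit) in 0, 0, 1 and 0, so that these classical residency genes were near 0. Ccr7, which guides naive T cells into lymph nodes, was in 1, 5, 3 and 1 members.

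NK rule cells, 55 in all, were compared with the members because both held Ccl5. They had 4107 CPM of Gzma, 489 of Prf1 and 3025 of Fcer1g, where the members of all libraries had 210, 49.7 and 560 CPM. They had 144 CPM of Cxcr6, against 418 CPM in members, and Trac was in 3 of 55. Members thus stood apart from these cells in Gzma and perforin as well as in the CD3 genes that the rule used.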

How the data were processed

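The deposited matrices hold raw UMI counts, made by the authors with Cell Ranger 6.0.1, per the file headers. The genome was mm10, per the submitters' processing notes, and the kit was the Chromium 3' v3.1 kit, per the labels. The barcodes were those of the deposited filtered matrices, 22644 in 4 libraries of 36331214 to 43531426 UMIs, 1 library per group. Cells were kept with at least 500 UMIs, 200 genes and at most 15% mitochondrial UMIs. Members, gene lists and comparison cells were chosen with earlier results of these data known.

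UMIs were summed over the members of a library and scaled to CPM with exact Poisson intervals. Shares have exact binomial (Clopper-Pearson) intervals, and ratios exact conditional binomial intervals. Genes with at least 20 UMIs in both arms together were compared and called at 2-fold, with an arm of 0 UMIs set to 3. No test was made between groups, because cells are not replicates. Intervals cover counting error only, and the spread between mice is unknown. No doublets were removed. Scrublet (scanpy 1.11.5, expected rate 6%) called 69, 44, 58 and 92 kept cells in P301S hom CD8 KO at 30 weeks, CD8 WT at 33 weeks, CD8 WT at 30 weeks and P301S neg, and 0 members. Cells were thinned to 1000 UMIs, which left out 1, 0, 1 and 0 members. Macrophages (cells rich in C1q) held at least 0.5% C1q UMIs, and endothelial cells at least 4 UMIs of Cldn5, Flt1 and Pecam1, both without CD3 UMIs.

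In each comparison the genes named were the 8 of highest and 8 of lowest ratio after 50 CPM were added to both arms, taken from genes with a UMI in at least 20% of the cells of the higher arm. Mitochondrial, ribosomal, haemoglobin, receptor segment, sex-linked and predicted genes were left out, as were those more than 10 times higher in another cell class. Genes of the 29 lists with at least 10 UMIs in all members could be named as well. Il17a, Lag3, Havcr2, Tigit, Itgae, Zfp683 and the genes listed beside small counts were chosen after their values were seen. Gene positions are from GENCODE M21, and promoters from RefSeq on GRCm38.p6. The alternatives were other Ccl5, mitochondrial and UMI limits, TMM scaling in edgeR 4.0.16, matched libraries, single-sex cells, other gene minimums and, chosen after seeing the data, ratios without the cell with most UMIs of the gene. Other tools were Python 3.11.15, numpy 2.4.6, pandas 2.3.3, scipy 1.17.1, matplotlib 3.10.9 and R 4.3.3, and the ratios were checked on simulated data. Some genes are not reported here.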

Additional observations from a re-analysis of the deposited data

How the results depend on the processing

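Over 280 alternative values of the shares and of the counts of genes past 2-fold, 254 stayed within the spread or within 1.5 times of the value reported, and 26 did not. Of the 168 shares, 3 moved. The CD8 share of members in P301S hom CD8 WT at 33 weeks was 76.7% without cells that held an Ncr1 or Klrb1c UMI, an alternative chosen after seeing the data, and thinning to 1000 UMIs gave Gzmk shares of 16.7% in P301S hom CD8 WT at 30 weeks and 5.56% in P301S neg. The other 23 were counts, given as genes higher and lower. With at least 10 UMIs per gene they were 438 and 458 for the library labelled CD8 KO over pooled CD8 WT hom, 304 and 315 for 33 over 30 weeks, and 593 and 336 for pooled P301S hom CD8 WT over P301S neg. With at least 50 UMIs they were 12 and 28, 7 and 14, and 45 and 11. TMM scaling gave 61 and 289 for CD8 KO over CD8 WT, and 53 lower for P301S hom over neg. Matched 30-week libraries gave 79 and 89 for CD8 KO over CD8 WT, and 111 and 60 for P301S hom over neg, among fewer genes (1662 and 1530). Male cells alone gave 28 and 9 for CD8 KO over CD8 WT. Without cycling members 55 genes were lower at 33 weeks, and with cells weighted equally 145 were lower in P301S hom than in neg. The cause was not tested, apart from the smaller or larger numbers of genes and cells that some alternatives leave. No paired analysis was possible because each group is 1 library. Depth limits all shares, since members had a median of 3194 UMIs. After seeing the data, each listed or named gene past 2-fold was recomputed without the cell with most of its UMIs in the higher arm. For P301S hom over neg 20 genes stayed past 2-fold, 22 fell below and 2 turned, for CD8 KO over CD8 WT 28, 12 and 2, for 33 over 30 weeks 23, 10 and 2, and for members over T cells with less Ccl5 70, 12 and 4. The ratios that turned were Gzma (0.883) and Gzmb (2.08) for P301S hom over neg, Cd14 (1.07) and Ifit1 (1.31) for CD8 KO over CD8 WT, Ifit1 (0.0918) and Lyz2 (0.592) for 33 over 30 weeks, and Car2 (6.82), Hspa1a (1.05), Mki67 (2.5) and Pclaf (0.579) for members over T cells with less Ccl5.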
